A study of Homo sapiens with 15 samples.

Results

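Of the 18858 genes counted in MDA-MB-231, a long-established line of human breast cancer cells, 545 carry a symbol that ends in -AS, with or without digits after it. The symbol marks an RNA transcribed from the strand opposite the gene whose name it bears, called here the host gene. The 217 antisense transcripts described below were selected on their mean over the 15 libraries, which had to reach 20 of the authors' normalized counts. Among the 13171 genes with such a mean they are 217, and they bear the names of 215 hosts, since DLGAP1 and PAXIP1 have 2 each. Just inside the limit lay STARD4-AS1 (mean 20.3) and USP2-AS1 (20.1), and just outside it ASH1L-AS1 and FAM13A-AS1 (both 19.8).

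Antisense transcripts are long RNAs without a known protein product. Some start beside the promoter of the host and run the other way, some are nested in an intron, and others reach across the end of the host gene. Individual ones are known to act on the chromatin, splicing or stability of their host's RNA, and others act away from their locus or have no known role. Many are spliced and polyadenylated, so that they enter libraries made from polyadenylated RNA together with messenger RNA. YAP and TAZ, the latter encoded by WWTR1, are co-activators that bind DNA through TEAD factors, often at sites shared with AP-1, and are restrained by the Hippo kinases.

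Cells were untransfected (Control) or had received siRNA pools that were non-targeting (siControl), directed at YAP1 (siYAP), directed at WWTR1 (siTAZ), or both of the last (siYAP+TAZ). Knockdown lasted 48 h and was followed in all groups by 5 to 6 h on gelatin. A pool was used at 30 nM, which makes 60 nM in siYAP+TAZ, so that the amount of siRNA and the co-knockdown cannot be told apart here. Each group had 3 libraries of the same cell line, which the study's supplement traces to 3 independent sets of experiments without saying which libraries form a set. The library numbers were 16, 21 and 26 for Control, 17, 22 and 27 for siControl, 18, 23 and 28 for siYAP, 19, 24 and 29 for siTAZ, and 20, 25 and 30 for siYAP+TAZ. Reads were single, and the sources used here do not say whether their strand was used in counting. Without it, a read in an exon that 2 genes share on opposite strands cannot be assigned to either, which touches every value below for which shared exonic bases are given.

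The libraries held 18696737 to 30107312 counts on genes (median 22902846). YAP1 had 4202 to 4431 normalized counts (TMM-scaled, as are all counts per library below, whereas means over the 15 libraries that set a limit or a level range are of the authors' normalized counts) in siControl, 761 to 2764 in siYAP, where library 23 was highest, and 1796 to 2240 in siYAP+TAZ. WWTR1 had 1579 to 1995 in siControl, 254 to 828 in siTAZ and 1123 to 1284 in siYAP+TAZ. None of these ranges overlapped that of siControl. The log2 fold change of YAP1 was -1.51 in siYAP (SE 0.37, adjusted p = 0.099 in edgeR) and -1.06 in siYAP+TAZ (SE 0.37, adjusted p = 0.072), and that of WWTR1 was -1.74 in siTAZ (SE 0.31, adjusted p = 0.019) and -0.62 in siYAP+TAZ (SE 0.30, adjusted p = 0.20), so that WWTR1 in siTAZ passed and the other 3 did not. Of 20 known YAP/TAZ targets, 13 were lower and 1 higher in siYAP+TAZ at an edgeR adjusted p of at most 0.05 (median log2 fold change -0.60), against 4 lower in siYAP and 3 lower in siTAZ. The mesenchymal markers VIM, CD44, AXL, CAV1 and FN1 were present, with medians from 15205 to 36192, whereas the progesterone receptor gene PGR (median 1.84) and the leukocyte gene PTPRC (2.15) were near 0. ERBB2 (2083 to 2927), GATA3 (424 to 680) and KRT19 (5349 to 11625), which are more typical of luminal cells, were measured in every library. Libraries 26 to 30 stood apart from the rest: for 4.02% of the 13171 genes they all lay above or all below the other 10, compared with 0.0911% for libraries 16 to 20 and 0.0456% for libraries 21 to 25.

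Most of the antisense transcripts were scarce. Their median mean was 55.0 of the authors' normalized counts, compared with 618.6 for the genes of the table with a mean of at least 20. Only 62 had a mean of at least 100 and 10 of at least 500. FGD5-AS1 was the most abundant, with 2869 to 3324 normalized counts (median 3097). It was followed by PAX8-AS1 (1004 to 1586), NOP14-AS1 (874 to 1133), AFAP1-AS1 (528 to 1247) and OIP5-AS1 (717 to 1371), the last of which is known as cyrano and binds the microRNA miR-7. These levels are not corrected for length.

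A host row was found for 205 of the 217, and 193 of these hosts' rows had a mean of at least 20. Per kilobase of annotated exon, the antisense transcript stood at a median of 13.4% of its host (quartiles 3.41% and 43.2%, 190 pairs with annotation for both). Exon length took in the exons of all isoforms in GENCODE 44, while reads were counted on GENCODE 34, so that these levels depend on the annotation. In 27 pairs the antisense transcript was the more abundant of the pair. PAX8-AS1 had 53.8 normalized counts per kilobase and PAX8, a transcription factor of thyroid and kidney, 32.5. NOP14-AS1 had 121 per kilobase and NOP14, a ribosome assembly factor, 1138. AFAP1-AS1 (76.8) lay at 56.1% of the actin filament associated gene AFAP1, whose exons cover 42.2% of its exonic bases, and OIP5-AS1 (41.4) at 72.0% of the centromere gene OIP5.

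**Figure D1:**
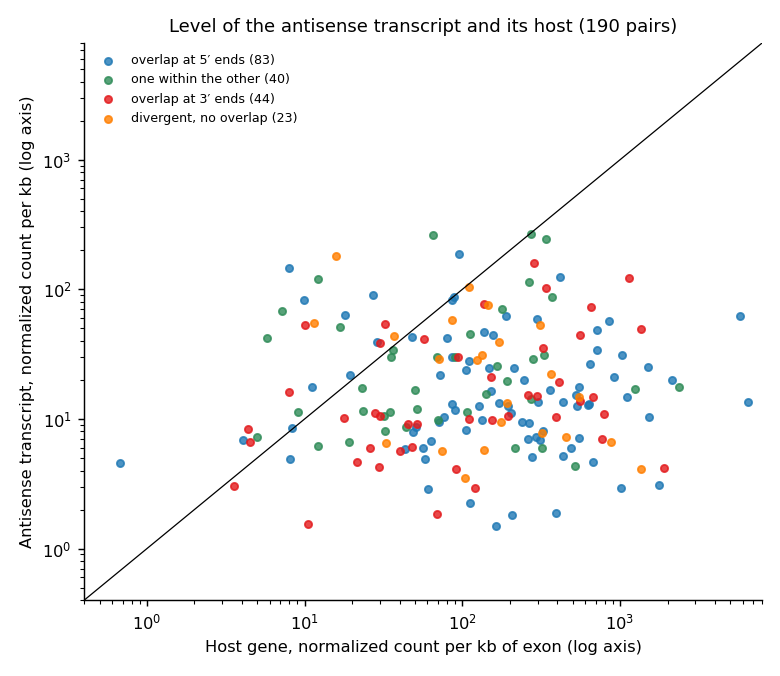
Normalized count per kilobase of exon (mean over 15 libraries, both axes logarithmic) of the antisense transcript against its host for 190 pairs, coloured by their arrangement in the genome. The line marks equal levels; 27 points lie above it, and the median antisense transcript stands at 13.4% of its host.

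Positions on GRCh38 were found for 213 pairs. In 91 the genes overlapped at their 5′ ends, in 48 at their 3′ ends, in 50 one lay within the other, and in 24 they ran apart without overlap, with a median of 74.5 bases between the start sites. Start sites lay within 1000 bases of each other in 72 pairs and within 300 in 36. Exonic bases were shared with the host in 165 pairs. Opposite exons of any gene covered a median of 6.50% of the exonic bases of an antisense transcript, at most 64.3%, and over 50% in 11 of them. The median antisense transcript lay at 39.7% of its host per kilobase where one gene was within the other, at 18.6% where the genes ran apart, at 14.03% for overlap at the 3′ ends and at 8.22% for overlap at the 5′ ends.

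Spread between libraries of a group was larger for the antisense transcripts than for their hosts, with a median residual SD of 0.223 on the log2 CPM scale compared with 0.138. FGD5-AS1 had one of 0.0523. AFAP1-AS1 had one of 0.532, and its 15 libraries fell into separate ranges by library number. In libraries 26 to 30, which hold 1 of each group, it had 528 to 649 normalized counts, and in the other 10 it had 838 to 1247.

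The first question was which antisense transcripts changed when both YAP and TAZ were knocked down. In RNA from whole cultures, a change in every cell and a change in some of the cells cannot be told apart. In siYAP+TAZ against siControl, 9 of 217 (4.15%) passed an edgeR adjusted p of at most 0.05 together with a log2 fold change of 1 or more in either direction, compared with 3.46% of all 18858 genes and 3.11% of those with a mean of at least 20. FUT8-AS1, ARHGAP5-AS1, DLGAP1-AS1, CYP1B1-AS1 and ZNF436-AS1 were higher (2.30%, all genes 3.14%), and ITGB2-AS1, HIF1A-AS3, PROSER2-AS1 and RGMB-AS1 were lower (1.84%, all genes 0.318%). FUT8-AS1 met the limit of 20 on the mean only through its siYAP+TAZ libraries. The 4 lower calls became 1 without siYAP+TAZ 25 and in libraries 16 to 25 only, and 2 without siYAP+TAZ 30. In these fits 8, 5 and 6 of 217 passed both thresholds in either direction (all genes 3.09%, 3.31% and 3.02%). At the adjusted p alone, 22 passed (10.1%, all genes 18.4%), of which 11 were higher (all genes 9.97%) and 11 lower (all genes 8.39%). With a term for runs of consecutive library numbers (16 to 20, 21 to 25, 26 to 30) it was 40 (18.4%, all genes 28.6%). In the fit with no such term, the median log2 fold change over all 217 was -0.003, compared with -0.005 for all genes. With libraries 26 to 30 left out, 5 passed both thresholds (all genes 3.31%) and 19 the adjusted p (all genes 19.9%), of which 4 and 12 were among those named by the fit with all libraries. In this smaller fit, chosen after the values had been seen, ARHGAP5-AS1, FUT8-AS1, DLGAP1-AS1 and ITGB2-AS1 still passed both. Without siControl 17, 22 or 27 the adjusted p was passed by 11, 14 and 14 (all genes 13.4%, 13.3% and 14.7%). Without siYAP+TAZ 30 it was passed by 9 (all genes 15.5%). Scaling to library size alone gave 6 higher and 3 lower past both thresholds (all genes 3.69%). At the adjusted p it gave 14 higher and 7 lower (all genes 17.7%).

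**Figure D2:**
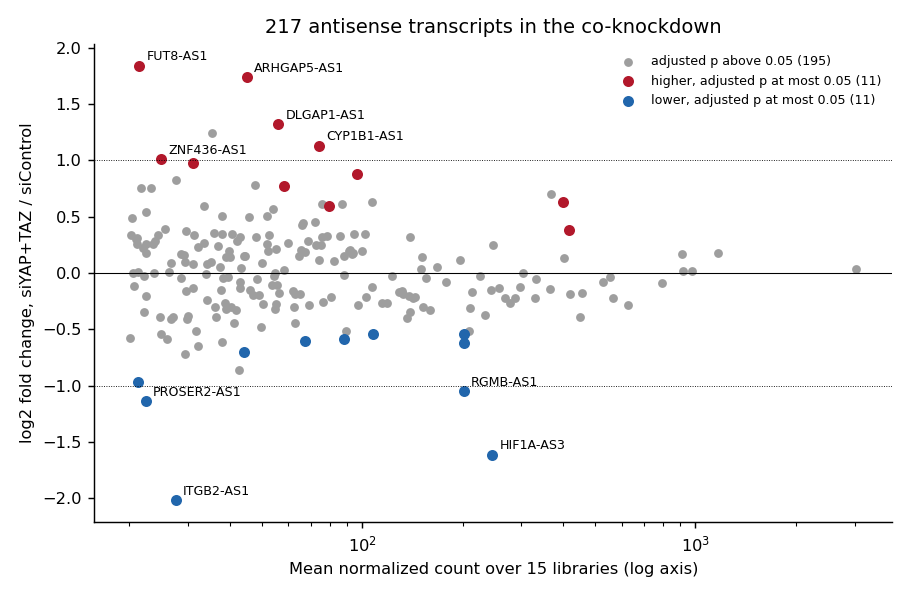
Log2 fold change in siYAP+TAZ against siControl (edgeR) over the mean of the authors' normalized counts in 15 libraries (logarithmic axis) for the 217 antisense transcripts, with dotted lines at a log2 fold change of 1 and -1. The 11 higher (red) and 11 lower (blue) at an adjusted p of at most 0.05 lie among 195 others (grey), and the 9 past both thresholds are named.

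The share of transcripts at the adjusted p was lower than that of all genes at every level. Between means of 20 and 50, 8 of 97 antisense transcripts passed the adjusted p (8.25%, all genes 12.7%), between 50 and 100 it was 7 of 58 (12.1%, all genes 18.4%), and between 100 and 500 it was 7 of 52 (13.5%, all genes 21.7%). Past both thresholds the shares in these ranges were 5.15% (all genes 8.81%), 3.45% (all genes 8.02%) and 3.85% (all genes 3.39%). Of the 10 above 500, 0 passed in edgeR, DESeq2 or limma-voom and 2 had an unadjusted p under 0.05, compared with 27.5% of all genes between 500 and 4000 at the edgeR adjusted p. The median SE was close in the lowest of these ranges (0.289 for the antisense transcripts and 0.288 for all genes) and larger for the antisense transcripts in the highest (0.115 and 0.0892). The most abundant of them, FGD5-AS1, had a log2 fold change of 0.03 (SE 0.06, adjusted p = 0.79 in edgeR). NOP14-AS1 had one of 0.02, while NOP14 fell by 0.50 (SE 0.07, adjusted p = 7.35e-05 in edgeR), and PAX8-AS1 one of 0.18, while PAX8 rose by 0.73 (SE 0.20, adjusted p = 0.016 in edgeR). In 68 of 217 (31.3%) the 3 siYAP+TAZ libraries did not overlap the 3 siControl libraries, 30 above and 38 below, compared with 36.4% of all genes. No difference between the antisense transcripts and other genes was tested.

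FUT8-AS1 (chromosome 14, 65411170 to 65412690, minus strand) had the largest increase. It had 16.2, 6.47 and 13.9 normalized counts in the siControl libraries, 36.9, 44.05 and 50.5 in siYAP+TAZ, 12.3, 26.2 and 17.5 in siYAP and 18.9, 29.3 and 12.9 in siTAZ. All siYAP+TAZ libraries lay above every other library. Against siControl the log2 fold change came to 1.84 (SE 0.36, adjusted p = 0.0016 in edgeR). Its host FUT8, which encodes the enzyme of core fucosylation, rose from between 1494 and 1665 to between 2327 and 2475, a log2 fold change of 0.57 (SE 0.07, adjusted p = 2.7e-05 in edgeR). Exons of FUT8 cover 54.2% of the exonic bases of FUT8-AS1, and the part of FUT8 reads in its count was not tested.

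ARHGAP5-AS1 (chromosome 14, 32074946 to 32076793, minus strand) had 33.2, 22.2 and 19.3 normalized counts in siControl and 92.7, 97.8 and 63.3 in siYAP+TAZ. Between them lay siYAP with 51.3, 52.5 and 46.2 and siTAZ with 46.5, 37.5 and 36.0, so that each knockdown group was above siControl in all libraries. The log2 fold change in siYAP+TAZ was 1.74 (SE 0.28, adjusted p = 2.5e-04 in edgeR), and in siYAP (0.99, SE 0.28) and siTAZ (0.68, SE 0.29) the edgeR adjusted p was 0.11 and 0.26. ARHGAP5, a GTPase-activating protein, rose by 0.85 (SE 0.16, adjusted p = 0.0016 in edgeR). The pair shares 304 exonic bases, 16.5% of those of ARHGAP5-AS1.

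CYP1B1-AS1 (chromosome 2, 38073447 to 38231651, plus strand) had 52.7, 65.7 and 56.9 normalized counts in siControl and 84.4, 148 and 150 in siYAP+TAZ. The groups did not overlap. This gave a log2 fold change of 1.13 (SE 0.25, adjusted p = 0.0035 in edgeR), and 0.999 with libraries 26 to 30 left out. CYP1B1, a cytochrome P450 that oxidises estrogens and foreign aromatic compounds, had a log2 fold change of 1.35 (SE 0.37, adjusted p = 0.030 in edgeR). The pair shares 6.44% of the exonic bases of CYP1B1-AS1.

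DLGAP1-AS1 (chromosome 18, 3593732 to 3598363, plus strand) lies inside the gene of the postsynaptic scaffold DLGAP1 and shares no exonic base with it. It had 48.5, 47.2 and 18.2 normalized counts in siControl and 127, 96.7 and 67.0 in siYAP+TAZ, without overlap, and siControl 27 was the lowest of all 15 libraries. DLGAP1-AS1 rose by 1.32 on the log2 scale (SE 0.32, adjusted p = 0.0080 in edgeR). No value of DLGAP1 itself is given here. DLGAP1-AS2, the other antisense transcript of this host, had a log2 fold change of 0.27 (adjusted p = 0.50 in edgeR).

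ZNF436-AS1 (chromosome 1, 23368939 to 23371839, plus strand) had 17.9, 20.3 and 19.3 normalized counts in siControl and 25.0, 35.5 and 54.1 in siYAP+TAZ. These groups did not overlap, but the Control libraries (32.97, 23.3 and 15.8) lay on both sides of siControl and overlapped siYAP+TAZ. The log2 fold change was 1.01 (SE 0.30, adjusted p = 0.024 in edgeR), and it passed neither without siYAP+TAZ 30 (0.67) nor without siControl 17 (0.96), 22 (1.06) or 27 (1.02). The zinc finger gene ZNF436 rose by 0.42 (SE 0.11, adjusted p = 0.013 in edgeR), and the pair shares 16.2% of the exonic bases of ZNF436-AS1. Of 13 antisense transcripts named after zinc finger genes of the ZNF, ZBTB, ZSCAN and ZBED families, 2 were higher (ZNF436-AS1 and ZBED5-AS1) and none lower (15.4%, all genes 18.4%), with log2 fold changes from -0.51 to 1.01 (median -0.03).

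**Figure D3:**
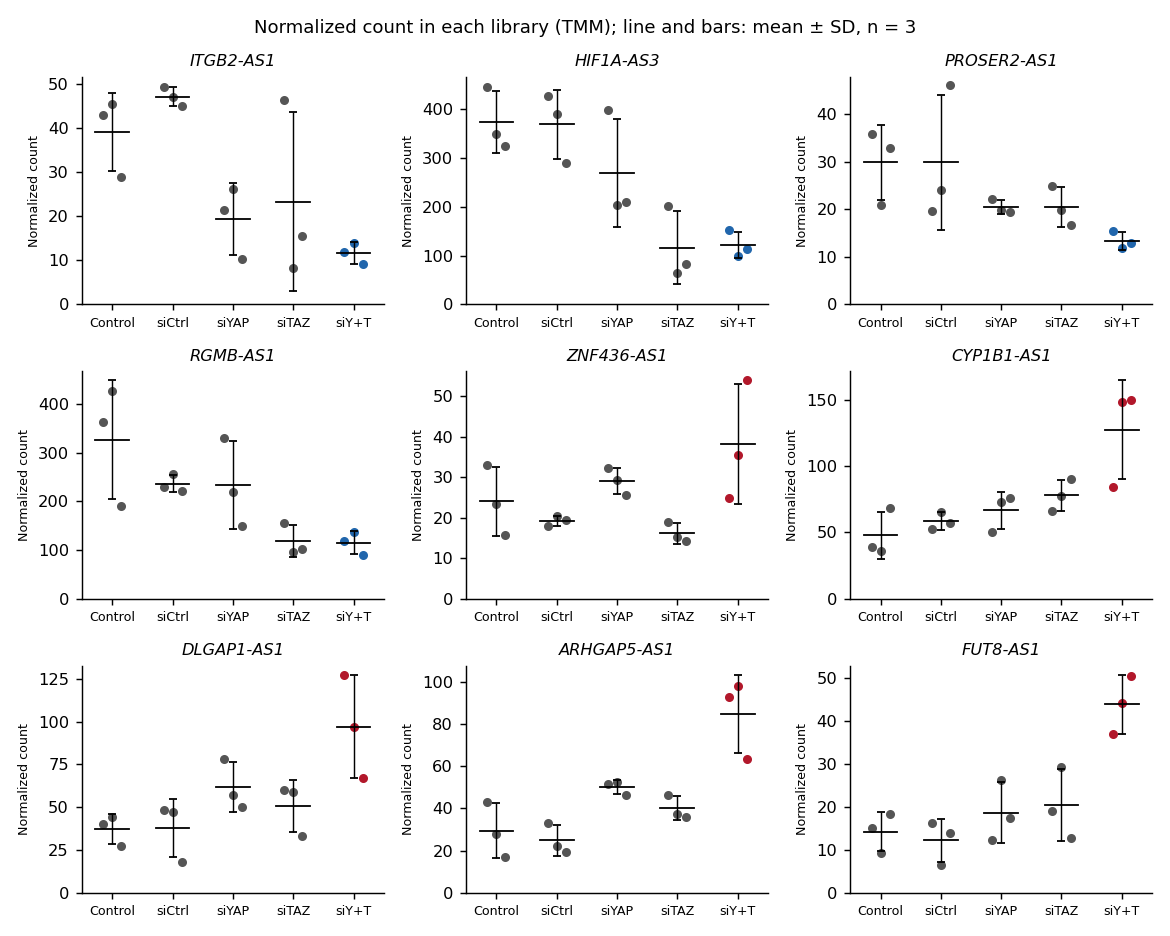
Normalized count (TMM-scaled, linear axis from 0) of the 9 antisense transcripts past both thresholds in each of the 15 libraries. Points are libraries, horizontal lines and bars the mean ± SD of 3, siCtrl is siControl and siY+T is siYAP+TAZ, which is coloured blue for the 4 lower and red for the 5 higher transcripts; in each panel its 3 points lie beyond all 3 siControl points.

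ZNF436 and ARHGAP5 are the pairs that rose together from start sites within 1000 bases of each other (897 and 679 apart in GENCODE 44). In that annotation both pairs overlap at their 5′ ends. RefSeq starts, used for the windows, can differ from these. The windows run from 250 bases before to 50 bases after each start (RefSeq, GRCh38.p14), in the direction of transcription. They lie at chr1:23368721-23369020 on the plus strand for ZNF436-AS1 and chr1:23369787-23370086 on the minus strand for ZNF436. For ARHGAP5-AS1 the window is chr14:32076650-32076949 on the minus strand and for ARHGAP5 chr14:32077054-32077353 on the plus strand. Capitals mark the letters GGAATG or, on the other strand, CATTCC, a core that TEAD factors bind, and the windows of a pair share no base.
ZNF436-AS1: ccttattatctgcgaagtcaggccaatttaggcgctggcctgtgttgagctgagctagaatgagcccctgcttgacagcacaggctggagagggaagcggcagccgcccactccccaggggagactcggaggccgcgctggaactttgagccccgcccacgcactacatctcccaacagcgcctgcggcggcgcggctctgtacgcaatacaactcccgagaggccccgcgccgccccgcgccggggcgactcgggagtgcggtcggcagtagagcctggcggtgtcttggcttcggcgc
ZNF436: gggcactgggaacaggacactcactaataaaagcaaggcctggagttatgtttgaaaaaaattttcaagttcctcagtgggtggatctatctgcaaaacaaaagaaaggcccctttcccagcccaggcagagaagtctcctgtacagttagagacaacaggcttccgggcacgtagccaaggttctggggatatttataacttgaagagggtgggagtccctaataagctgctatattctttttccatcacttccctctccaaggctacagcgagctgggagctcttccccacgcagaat
ARHGAP5-AS1: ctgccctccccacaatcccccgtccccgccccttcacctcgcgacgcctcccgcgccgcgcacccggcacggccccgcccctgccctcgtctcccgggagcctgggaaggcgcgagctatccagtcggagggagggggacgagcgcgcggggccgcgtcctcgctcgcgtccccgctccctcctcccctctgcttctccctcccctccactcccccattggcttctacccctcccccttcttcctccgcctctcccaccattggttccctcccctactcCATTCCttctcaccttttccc
ARHGAP5: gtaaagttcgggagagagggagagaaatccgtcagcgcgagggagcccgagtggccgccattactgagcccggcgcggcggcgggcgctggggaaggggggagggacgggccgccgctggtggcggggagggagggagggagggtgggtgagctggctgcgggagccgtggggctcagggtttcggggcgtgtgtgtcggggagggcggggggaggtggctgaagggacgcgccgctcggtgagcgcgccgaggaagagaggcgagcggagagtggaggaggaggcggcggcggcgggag
The window of ARHGAP5-AS1 holds these letters and those of ARHGAP5, ZNF436 and ZNF436-AS1 do not. Of the 217 antisense transcripts, 172 had a window, and 22 of them (12.8%) held the TEAD letters, compared with 14.05% of all 27305 windows and 13.4% of the 187 windows of hosts. The AP-1 letters TGANTCA, which read the same on both strands, stood in 8 windows (4.65%), compared with 7.76% of all and 5.88% of hosts. Among the 22 transcripts at the adjusted p, 18 had a window, of which NEXN-AS1 and ARHGAP5-AS1 held the TEAD letters and SERTAD4-AS1 the AP-1 letters. A match of letters shows no binding.

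Among the transcripts that fell, ITGB2-AS1 (chromosome 21, 44921051 to 44929680, plus strand) had the most negative log2 fold change. The siControl libraries held 49.3, 47.2 and 45.1 normalized counts of it and the siYAP+TAZ libraries 11.9, 13.97 and 9.18. In siYAP they were 21.5, 26.2 and 10.3, below every siControl library, and in siTAZ they were 46.5, 8.20 and 15.4, of which library 19 lay within the siControl range. On the log2 scale the change was -2.02 in siYAP+TAZ (SE 0.46, adjusted p = 0.0053 in edgeR), -1.25 in siYAP (SE 0.41, adjusted p = 0.19 in edgeR) and -0.93 in siTAZ (SE 0.41, adjusted p = 0.275 in edgeR). ITGB2, the beta subunit of the leukocyte integrins, had a log2 fold change of -0.96 that did not pass (SE 0.45, adjusted p = 0.17 in edgeR). The pair shares 12.1% of the exonic bases of ITGB2-AS1.

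HIF1A-AS3 (chromosome 14, 61707298 to 61751163, minus strand) and its host moved in opposite directions. HIF1A-AS3 had 427, 390 and 291 normalized counts in siControl and 152, 99.9 and 113 in siYAP+TAZ. In siTAZ it had 201, 63.3 and 83.5, also below every siControl library, and in siYAP it had 398, 203 and 210, of which library 18 lay within the siControl range. Its log2 fold change was -1.61 in siYAP+TAZ (SE 0.39, adjusted p = 0.014 in edgeR), -1.63 in siTAZ (SE 0.39, adjusted p = 0.059 in edgeR) and -0.45 in siYAP (SE 0.36, adjusted p = 0.71 in edgeR). HIF1A, the oxygen-regulated subunit of the hypoxia-inducible factor, had 5545, 5666 and 4740 in siControl and 9829, 10456 and 7527 in siYAP+TAZ, a log2 fold change of 0.80 (SE 0.15, adjusted p = 0.0019 in edgeR). The genes overlap at their 3′ ends, where 5.93% of the exonic bases of HIF1A-AS3 are shared. Stretches of 50 bases that also occur in genes elsewhere make up 13.0% of HIF1A-AS3, and its log2 fold change no longer passed without siYAP+TAZ 25 (-1.48) or 30 (-1.55).

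PROSER2-AS1 (chromosome 10, 11849608 to 11894700, minus strand) had 19.6, 24.0 and 46.1 normalized counts in siControl and 15.5, 11.8 and 12.8 in siYAP+TAZ. The groups did not overlap, and siControl 27 was well above the other siControl libraries. PROSER2-AS1 had a change of -1.14 on the log2 scale (SE 0.34, adjusted p = 0.025 in edgeR), and it did not pass without siControl 27 (-0.70), siYAP+TAZ 25 (-1.06) or siYAP+TAZ 30 (-1.10). PROSER2 fell by 0.75 (SE 0.11, adjusted p = 1.6e-04 in edgeR), with 0.947% of the exonic bases of PROSER2-AS1 shared.

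RGMB-AS1 (chromosome 5, 98769618 to 98773469, minus strand) had 230, 256 and 222 normalized counts in siControl and 118, 136 and 89.9 in siYAP+TAZ. Again the groups did not overlap. In siTAZ the libraries had 156, 94.9 and 103, below every siControl library, while in siYAP they had 330, 219 and 150, on both sides of siControl. The log2 fold change in siYAP+TAZ was -1.05 (SE 0.33, adjusted p = 0.042 in edgeR), and it did not pass when any 1 of the 6 libraries compared was left out (-1.19 to -0.88). RGMB, a co-receptor for bone morphogenetic proteins, fell by 0.69 (SE 0.11, adjusted p = 2.6e-04 in edgeR). The pair shares 15.4% of the exonic bases of RGMB-AS1.

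A further 13 antisense transcripts passed the adjusted p with smaller changes. ATP6V0E2-AS1, named after a subunit of the vacuolar proton pump, had 230, 229 and 248 normalized counts in siControl and 147, 143 and 169 in siYAP+TAZ. It fell by 0.62 (SE 0.12, adjusted p = 0.0010 in edgeR). ZBED5-AS1, named after a zinc finger gene derived from a transposon, had 347, 364 and 343 in siControl and 566, 549 and 519 in siYAP+TAZ and rose by 0.63 (SE 0.12, adjusted p = 9.9e-04 in edgeR). In both the groups did not overlap, and neither host passed, with log2 fold changes of 0.04 for ATP6V0E2 (SE 0.10) and 0.10 for ZBED5 (SE 0.13). Exonic bases shared with the host make up 26.3% of ATP6V0E2-AS1 and 12.5% of ZBED5-AS1.

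The other lower ones were NEXN-AS1 (-0.97), HDAC2-AS2 (-0.70), RBMS3-AS3 (-0.60), PTPRG-AS1 (-0.59), KTN1-AS1 (-0.54) and SERTAD4-AS1 (-0.54), with edgeR adjusted p from 0.0079 to 0.047. Their hosts NEXN (an actin-binding protein), HDAC2 (a histone deacetylase), RBMS3 (an RNA-binding protein) and SERTAD4 were lower as well, with log2 fold changes from -0.81 to -0.24. PTPRG, a receptor tyrosine phosphatase, and KTN1, which encodes kinectin, had log2 fold changes of -0.03 and 0.02 that did not pass. RBMS3-AS3 shares no exonic base with RBMS3, a gene on the list of known targets.

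The other higher ones were SNAI3-AS1 (0.97), PSMG3-AS1 (0.88), IRF1-AS1 (0.77), NRSN2-AS1 (0.60) and WAC-AS1 (0.38), with edgeR adjusted p from 0.011 to 0.036. PSMG3-AS1 had 65.5, 61.03 and 95.5 normalized counts in siControl and 112, 120 and 172 in siYAP+TAZ, without overlap, while the proteasome assembly gene PSMG3 fell by 0.26 (SE 0.09, adjusted p = 0.046 in edgeR). IRF1, an interferon-regulated transcription factor, rose by 0.47 (SE 0.11, adjusted p = 0.0057 in edgeR), and 28.8% of the exonic bases of IRF1-AS1 are shared with it. NRSN2 (0.28) and WAC (-0.07) did not pass, and SNAI3 itself had only 7.65 to 16.1 normalized counts in the libraries compared.

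In the single knockdowns few antisense transcripts passed without a term for runs of consecutive library numbers, and the number depended on that term, with which 7 passed the adjusted p in siYAP (all genes 6.1%) and 14 in siTAZ (all genes 10.3%), or 3.23% and 6.45% of the 217. Both thresholds were then passed by 2 in siYAP (0.922%, all genes 0.382%) and 2 in siTAZ (0.922%, all genes 0.806%). The edgeR counts that follow are from the fit without that term. In siYAP against siControl, 0 of 217 passed both thresholds in edgeR (all genes 0.0955%) and 0 the adjusted p alone (all genes 0.933%). By unadjusted p under 0.05 there were 23 (10.6%, all genes 11.9%), and at an adjusted p of at most 0.05 DESeq2 called 1 (all genes 2.12%) and limma-voom 0 (all genes 0.88%). In siTAZ against siControl, 0 passed both in edgeR (all genes 0.212%) and 1 the adjusted p (all genes 2.03%), with 26 at an unadjusted p under 0.05 (12.0%, all genes 16.0%). For both thresholds DESeq2 (all genes 0.329%) and limma-voom (all genes 0.223%) each gave 1, which was HIF1A-AS3. The one at the edgeR adjusted p was PAXIP1-AS1 (chromosome 7, 155003421 to 155005703), whose start lies 297 bases from that of PAXIP1, a protein of the DNA damage response, and which shares no exonic base with it. It had 242, 276 and 269 normalized counts in siControl and 193, 123 and 184 in siTAZ, without overlap, a log2 fold change of -0.65 (SE 0.14, adjusted p = 0.022 in edgeR). In siYAP the log2 fold change was 0.14 and in siYAP+TAZ -0.37 (SE 0.14, adjusted p = 0.077 in edgeR), while PAXIP1 had 0.03 in siTAZ. The call of PAXIP1-AS1 was lost without siControl 17, 22 or 27 or siTAZ 24. It was also lost with the siControl and siTAZ libraries alone in the fit (adjusted p = 0.099 in edgeR). Leaving out siControl 17, 22 or 27 or siTAZ 24 left 0 antisense transcripts called (all genes 0.626%, 0.658%, 1.5% and 0.361%). Without siTAZ 19, 7 were called (3.23%, all genes 4.78%). PAXIP1-AS2, at the other end of the host, had 0.36 in siTAZ and 0.61 in siYAP+TAZ (adjusted p = 0.051 in edgeR for the latter).

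**Figure D4:**
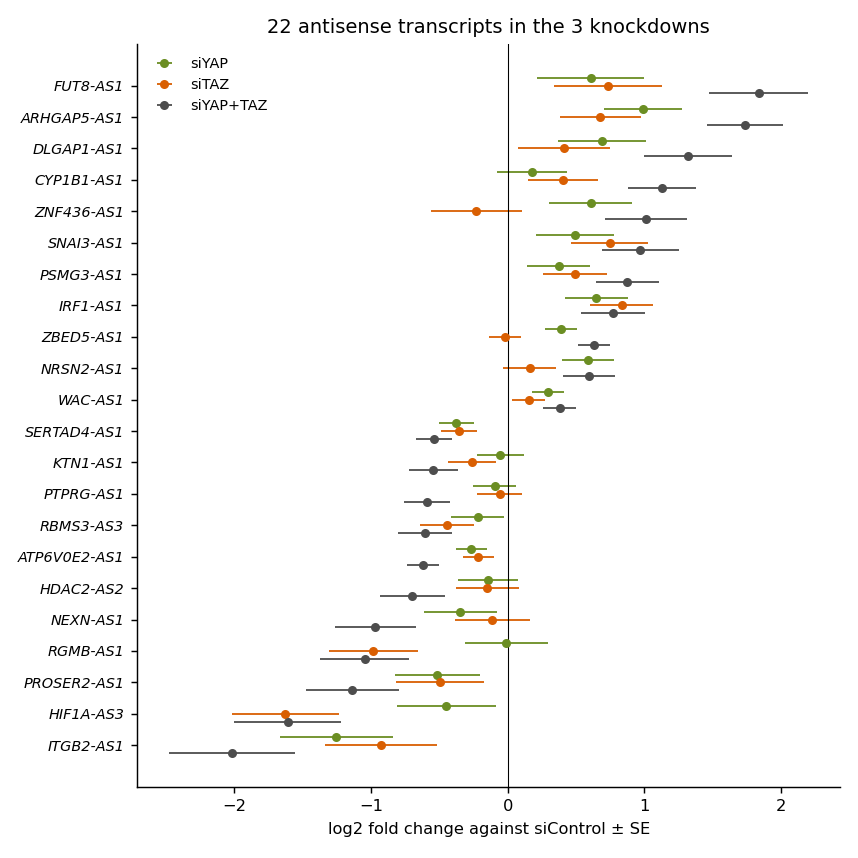
Log2 fold change ± SE (edgeR) against siControl in siYAP, siTAZ and siYAP+TAZ for the 22 antisense transcripts at an adjusted p of at most 0.05 in siYAP+TAZ, ordered by the latter. The 3 comparisons share the siControl libraries; HIF1A-AS3 reads -1.63 in siTAZ and -1.61 in siYAP+TAZ, and ZNF436-AS1 reads -0.23 in siTAZ and 1.01 in siYAP+TAZ.

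The co-knockdown was also set directly against each of the single ones. Against siYAP, 4 of 217 passed the edgeR adjusted p (all genes 5.13%) and 2 both thresholds (all genes 0.742%). FUT8-AS1 was higher in siYAP+TAZ by 1.23 and CYP1B1-AS1 by 0.95, and PAXIP1-AS1 and SOCS2-AS1 had log2 fold changes of -0.51 and -1.10. SOCS2-AS1, named after a suppressor of cytokine signalling, had 72.0, 47.7 and 57.5 normalized counts in siYAP and 40.4, 22.6 and 21.1 in siYAP+TAZ, without overlap. Against siTAZ, 3 passed the adjusted p (all genes 5.44%) and 2 both thresholds (all genes 0.78%), namely ZNF436-AS1 (1.24) and ARHGAP5-AS1 (1.06), with ZBED5-AS1 at 0.65. With a term for runs of library numbers, 18 passed the adjusted p against siYAP (all genes 14.6%) and 12 against siTAZ (all genes 14.8%), and both thresholds were passed by 4 (all genes 1.38%) and 3 (all genes 1.46%). With no such term, 0 passed both thresholds against siYAP without siYAP 18 or siYAP+TAZ 25 or 30 (all genes 0.445%, 0.514% and 0.62%). Against siTAZ the number was 0 without siTAZ 24 or 29 or siYAP+TAZ 25 (all genes 0.467%, 0.424% and 0.414%). ZBED5-AS1 had 369, 292 and 379 normalized counts in siTAZ, on both sides of siControl, and 418, 413 and 555 in siYAP, above it. For an effect of both pools beyond that of each added on the log2 scale, edgeR called 0 of 217 at the adjusted p (all genes 0.0106%) and 0 past both thresholds (all genes 0.0053%), with 5 at an unadjusted p under 0.05 (2.30%, all genes 5.85%) and 0 by DESeq2 and limma-voom.

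Transfection alone was compared in siControl against Control, where edgeR called 0 of 217 (all genes 0%), with 6 at an unadjusted p under 0.05 (2.76%, all genes 2.11%) and 0 by DESeq2 and limma-voom. With Control as the reference, 11 passed both thresholds in siYAP+TAZ (all genes 3.79%), 5 higher and 6 lower, and 8 of the 9 were among them. The exception was ZNF436-AS1, at 0.66.

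The antisense transcript was then set beside its host in the 193 pairs with both means at 20 or above. Of the hosts, 49 of 192 (25.5%) passed the adjusted p in siYAP+TAZ, 24 higher and 25 lower, compared with 24.4% of all genes with a mean of at least 20, and 4 (2.08%) passed both thresholds, compared with 3.11%. In 13 pairs both genes passed, in 11 of them in the same direction. The exceptions were HIF1A-AS3 and PSMG3-AS1, which lie opposite ends of their host's gene (3′ for HIF1A, 5′ for PSMG3). In 7 pairs only the antisense transcript passed, in 36 only the host, and in 137 neither. The log2 fold changes had the same sign in 107 pairs (55.4%). Across pairs, which share libraries and often bases, Pearson's r was 0.33 and Spearman's correlation 0.24, with 0.48 and 0.33 in the 70 pairs with start sites within 1000 bases and 0.34 and 0.25 in the 120 farther apart. In the 150 pairs with shared exonic bases r was 0.36 and in the 40 without it was 0.27.

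**Figure D5:**
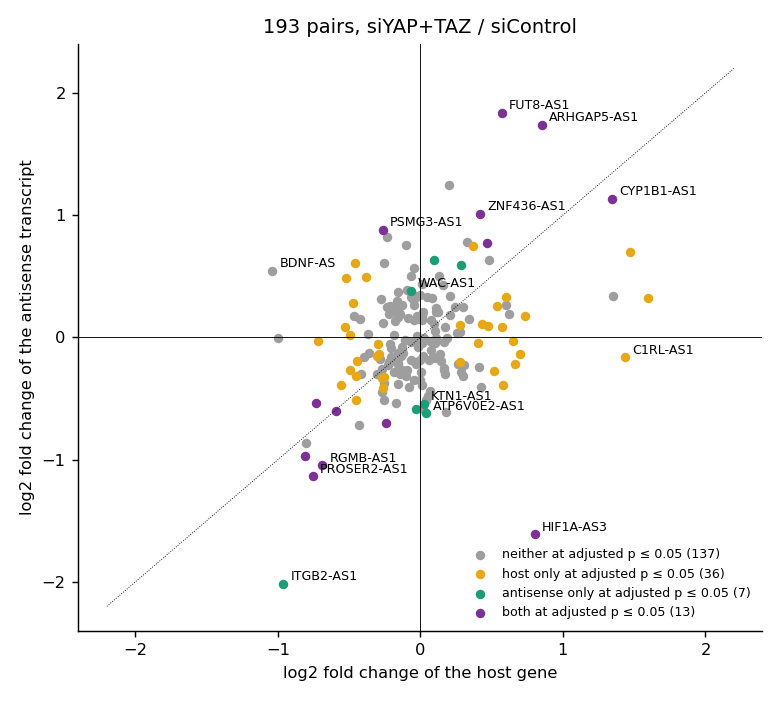
Log2 fold change in siYAP+TAZ against siControl (edgeR) of the antisense transcript over that of its host in 193 pairs, coloured by which of the pair passed an adjusted p of 0.05; the dotted line marks equal change. Of the 13 pairs with both past it, 11 lie in the quadrants of equal sign, and HIF1A-AS3 and PSMG3-AS1 do not.

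By arrangement, 7 of the 91 transcripts that overlap their host at the 5′ ends were higher and 5 lower (13.2% in all), 3 and 3 of the 50 with one gene within the other (12.0%), and 1 and 3 of the 48 at the 3′ ends (8.33%), compared with 18.4% of all genes and 24.4% of those with a mean of at least 20. Among the 24 that run apart from their host without overlap, 0 were called by edgeR, DESeq2 or limma-voom in siYAP+TAZ against siControl and 6 had an unadjusted p under 0.05. Their median log2 fold change was -0.04.

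The ratio of the antisense transcript to its host was also compared between siYAP+TAZ and siControl on the log2 scale, from CPM with 0.05 added. In 63 of 193 pairs (32.6%) the libraries did not overlap, with the ratio higher in 29 and lower in 34. For the level of single genes, the same libraries did not overlap in 36.4% of all genes and in 31.3% of the antisense transcripts. In each such pair the two-sided exact permutation p was 0.1, the smallest that 3 libraries against 3 allow, so that no ratio can pass 0.05. The lowest change was that of HIF1A-AS3, whose log2 ratio to HIF1A was -3.86 ± 0.16 in siControl and -6.25 ± 0.39 in siYAP+TAZ (SD, n = 3), which differ by -2.39 (exact permutation p = 0.1). In siTAZ the mean ratio was -6.36 and in siYAP -4.66.

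For C1RL-AS1 and CNIH3-AS2, the ratio to the host was lower in siYAP+TAZ. C1RL, a complement C1r-like protease gene, rose by 1.43 (SE 0.20, adjusted p = 7.6e-05 in edgeR), while C1RL-AS1 had 28.9, 29.6 and 42.9 normalized counts in siControl and 27.3, 30.1 and 32.1 in siYAP+TAZ, which overlap. CNIH3, which encodes an auxiliary protein of AMPA receptors, rose by 1.60 (SE 0.14, adjusted p = 7.6e-07 in edgeR), and CNIH3-AS2 had 39.1, 33.3 and 38.6 and then 38.1, 41.9 and 57.8, which overlap as well. Their log2 ratios changed by -1.56 and -1.29 against siControl and by -1.004 and -1.60 against Control. Exons of genes on the other strand cover 28.9% of C1RL-AS1 and none of CNIH3-AS2. The highest change of the ratio against siControl was that of BDNF-AS (1.54, or 1.02 against Control), followed by FUT8-AS1 (1.25, or 0.66 with 0.5 CPM added) and PSMG3-AS1 (1.11). BDNF-AS, known as an antisense RNA that lowers the expression of the neurotrophin BDNF, had 16.2, 23.1 and 12.9 normalized counts in siControl and 38.1, 20.4 and 19.3 in siYAP+TAZ, which overlap. Neither BDNF-AS (0.54, SE 0.39) nor BDNF (-1.04, SE 0.35) passed by itself, with edgeR adjusted p of 0.38 and 0.060.

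WWTR1 is an siRNA target with an antisense row of its own, WWTR1-AS1, which fell below the limit of 20. It had 1.70, 5.55 and 1.07 normalized counts in siControl, 5.17, 9.38 and 2.57 in siTAZ, 8.32, 7.52 and 9.18 in siYAP+TAZ and 6.99, 6.99 and 7.89 in Control. The siYAP+TAZ libraries lay above siControl and overlapped Control. Neither the log2 fold change in siYAP+TAZ (1.53, SE 0.56, adjusted p = 0.064 in edgeR) nor that in siTAZ (0.99, SE 0.59, adjusted p = 0.45) passed.

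Other noncoding genes, grouped by symbol and with a mean of at least 20, were counted in siYAP+TAZ against siControl for comparison. The adjusted p was passed by 6 of 31 divergent transcripts with the suffix -DT (19.4%), by 20 of 121 LINC genes (16.5%), by 11 of 42 hosts of small RNAs (26.2%) and by 0 of 3 intronic transcripts in edgeR, DESeq2 and limma-voom, of which 1 had an unadjusted p under 0.05, compared with 10.1% of the antisense transcripts and 24.4% of all genes with such a mean. Both thresholds were passed by 2, 6, 1 and 0 of them, compared with 3.11% of all genes with such a mean. The hosts of small RNAs had a median log2 fold change of -0.31 and the LINC genes of 0.02. These classes were not tested against each other.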

How the data were processed

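Per the submitters' processing notes, reads of polyadenylated RNA were aligned to GRCh38 with STAR 2.4.2a, and the authors counted them on genes of GENCODE 34. The deposited table held the raw counts used for all tests, the authors' DESeq2-normalized signal, used here to select transcripts and for their means over libraries, and their log2 values from a regularised transformation, not used here. Its deposited columns of the authors' own comparisons (p-values, adjusted p-values, log2 fold changes and base means) were not used. All 18858 rows named a gene and entered the library totals; per-sample columns without a sample numbered 0.

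Counts were tested in R 4.3.3 with edgeR 4.0.16 (quasi-likelihood test, TMM scaling, all 5 groups in 1 fit, genes with at least 5 reads in 1 library, Benjamini-Hochberg adjustment over all of them). An adjusted p of up to 0.05 made a call, and past both thresholds means a log2 fold change of 1 or more in either direction as well. The SE given with edgeR values was derived as the absolute log2 fold change over the square root of the F statistic. On simulated counts of 18826 genes for siYAP+TAZ against siControl, edgeR recovered 196 of 200 changed genes and called 3 others. Recovery at the levels and log2 fold changes of the antisense transcripts was not tested separately. Alternatives were DESeq2 1.42.0, limma 3.58.1 (voom), other filters, scalings, limits on the mean and references, and leaving out libraries. Ratios were tested with an exact permutation test in scipy 1.17.1 under Python 3.11.15. Positions came from GENCODE 44, with 201 symbols matched by name and 13 by a synonym that is no other row of the table, and promoter windows from RefSeq.

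Named by rule are the transcripts past both thresholds, the 3 highest and 3 lowest log2 fold changes at the adjusted p in each knockdown, the 5 most abundant, those around the limit of 20, an antisense transcript of an siRNA target, the 3 highest and 3 lowest ratio changes without overlap, and their hosts; other transcripts are named after their values were seen. The antisense transcripts and lists were chosen with earlier results of these data known. Library totals ran from 18696737 to 30107312 counts.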

Additional observations from a re-analysis of the deposited data

How the results depend on the processing

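Of 23 antisense transcripts followed singly, 6 kept their call in all 16 alternative fits or references and 0 reversed. Other limits on the mean, which change only the selection, were not among those 16. Of the 9 past both thresholds, ITGB2-AS1, DLGAP1-AS1, ARHGAP5-AS1 and FUT8-AS1 kept their call in all of them. RGMB-AS1 was also lost with scaling to library size (-1.002), and PROSER2-AS1 (-1.01) and ZNF436-AS1 (0.95) with limma-voom. In siYAP+TAZ against siControl, 5 passed both thresholds in libraries 16 to 25 only (all genes 3.31%). Of the 120 with a mean of at least 50, 4 did (3.33%, all genes of such a mean 2.39%) and 14 passed the adjusted p (11.7%, 25.9%). In siTAZ both thresholds gave 1 of 217 (0.461%) with DESeq2 (all genes 0.329%), limma-voom (0.223%), a filter of 10 reads in 3 libraries (0.276%) and filterByExpr (0.287%), and 2 with Control as the reference (0.408%). The adjusted p gave 5 with DESeq2 (2.30%, all genes 4.25%), 2 (0.922%) with limma-voom (all genes 1.88%) and with each of these filters (2.84% and 2.95%), and 3 in libraries 16 to 25 (1.38%, all genes 4.68%), and in siYAP it gave 1 with DESeq2 (0.461%, all genes 2.12%). Past both thresholds against siYAP there was 1 in libraries 16 to 25 (all genes 0.848%), 1 with only the groups compared in the fit (0.61%), and 0 at a mean of at least 50 (0.556%). Against siTAZ the last 2 of these gave 1 (0.536%) and 0 (0.487%). The ratio did not overlap in 103 pairs in libraries 16 to 25, where fewer libraries make overlap rarer. The cause of the other changes was not tested. Leaving out 1 library gave 6 to 10 past both thresholds in siYAP+TAZ (all genes 2.83% to 3.09%) and 9 to 18 at the adjusted p (13.3% to 15.5%). In siTAZ it gave 0 to 2 (all genes 0.0212% to 0.705%) and 0 to 7 (0.361% to 4.78%). In siYAP it gave 0 for both (all genes 0.0265% to 0.122% and 0.143% to 0.726%). Past both thresholds it gave 0 for the interaction (all genes 0% to 0.0159%) and 0 in siControl against Control (all genes 0%). Against siYAP it gave 0 to 3 (all genes 0.445% to 0.62%) and against siTAZ 0 to 2 (0.414% to 0.737%). Ratio pairs without overlap numbered 73 to 85.

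The labels give no replicate numbers that groups share. Taking runs of consecutive library numbers (16 to 20, 21 to 25, 26 to 30) as a block, siYAP+TAZ had 40 at the adjusted p (all genes 28.6%), siYAP 7 (6.1%) and siTAZ 14 (10.3%). Both thresholds were passed by 10 in siYAP+TAZ (4.61%, all genes 4.41%), 2 in siYAP (0.922%, 0.382%), 2 in siTAZ (0.922%, 0.806%) and 4 in siYAP+TAZ against siYAP (1.84%, 1.38%). Deviations from group means correlated within runs at a median r of 0.41 (-0.054 to 0.638, 30 pairs) and between runs at a median of -0.33. The deviations of a group cancel out, so that positive values within runs force negative ones between runs. Of the 15 libraries, 10 correlated best with their own run. Each run holds 1 library of every group, and the sources do not say whether the runs are the 3 sets of experiments. The median SE of a log2 fold change was 0.232 for the antisense transcripts, with a median mean of 55.0 counts, and 0.107 for hosts.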
